A study of Mus musculus with 6 samples.

Results

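Among the protein-coding promoters measured in the mouse dentate gyrus, few were methylated. In the genome of the granule cell region of the hippocampus, 83 of 11400 measured autosomal promoters (0.728%) carried a mean methylation level of 70% or more. A promoter here is the stretch within 500 bp of the 5′ end of a protein-coding gene in GENCODE M21. It was measured when at least 5 cytosines in it had a value, which 11400 of 20807 autosomal protein-coding genes reached. The share says nothing of the promoters that were not measured, and with at least 3 cytosines it was 165 of 11995. The 83 were chosen by their own methylation level, the mean of all those cytosines over all 6 libraries, so that level is a description and carries no test. DNA was taken from micro-dissected dentate gyrus of female C57BL/6JRj mice aged 4.5 months and read by reduced representation bisulfite sequencing (RRBS), in which an enzyme cuts at CCGG and bisulfite converts unmethylated cytosines only. Enriched mice (ENR, n = 3) had lived from 6 weeks of age for 3 months in a large enclosure with tunnels and toys that were rearranged weekly. Standard mice (STD, n = 3) were kept in standard cages for the same time, on the same food and in smaller groups than ENR mice. Tissue was bulk, so a level of 75% can be 3 of 4 cells fully methylated or all cells partly methylated, and these cannot be told apart.

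Methylation of cytosine in CpG pairs is copied when DNA replicates, because the maintenance methyltransferase Dnmt1 acts on hemimethylated DNA. Most promoters of mammalian genes lie in CpG-rich sequence that stays free of methylation whether or not the gene is transcribed. A smaller class is methylated in somatic cells, and it is best known at genes of the germ line, which acquire methylation in the early embryo and are kept silent afterwards, and at CpG-poor promoters of tissue-restricted genes.

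The stretches that follow show the kinds of sequence concerned, read from the GRCm38 reference (mm10 coordinates) and written 5′ to 3′ on the strand of the gene, with each CpG that was measured in capitals. Rpl10l had the highest level of all promoters, Tex15, Rpl39l and Ddx4 act in the germ line, Abca16 is a promoter whose housing groups did not overlap, 3110070M22Rik holds the most measured cytosines of the 83, and the Oser1 stretch lies at another start of a methylated gene and is itself unmethylated.
Rpl10l coding sequence (chr12:66284210-66284357, minus strand): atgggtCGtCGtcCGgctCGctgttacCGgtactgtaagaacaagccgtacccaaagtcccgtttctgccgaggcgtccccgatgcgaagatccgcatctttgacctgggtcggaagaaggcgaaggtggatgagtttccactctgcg
Tex15 upstream of the 5′ end (chr8:33516662-33516737, plus strand): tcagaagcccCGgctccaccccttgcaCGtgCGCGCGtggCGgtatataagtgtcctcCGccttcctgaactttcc
Rpl39l upstream of the 5′ end (chr16:10170147-10170225, plus strand): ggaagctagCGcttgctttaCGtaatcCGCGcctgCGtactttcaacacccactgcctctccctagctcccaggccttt
Ddx4 upstream of the 5′ end (chr13:112652476-112652573, minus strand): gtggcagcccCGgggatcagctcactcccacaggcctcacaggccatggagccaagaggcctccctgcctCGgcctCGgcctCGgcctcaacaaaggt
Abca16 upstream of the 5′ end (chr7:120409566-120409646, plus strand): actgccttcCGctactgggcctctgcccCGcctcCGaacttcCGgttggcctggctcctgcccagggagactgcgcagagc
3110070M22Rik upstream of the 5′ end, inside an intron of Tmem267 (chr13:119488384-119488542, minus strand): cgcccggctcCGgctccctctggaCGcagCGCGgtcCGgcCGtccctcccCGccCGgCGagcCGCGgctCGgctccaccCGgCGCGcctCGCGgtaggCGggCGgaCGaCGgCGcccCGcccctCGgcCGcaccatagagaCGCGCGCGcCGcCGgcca
Oser1 upstream of the downstream start (chr2:163419529-163419678, minus strand): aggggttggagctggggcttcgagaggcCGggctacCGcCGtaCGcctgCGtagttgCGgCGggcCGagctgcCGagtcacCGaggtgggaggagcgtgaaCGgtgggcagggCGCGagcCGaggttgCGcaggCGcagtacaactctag

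In the Rpl10l stretch the 5 measured cytosines averaged 97.6% ± 0.478 in STD and 99.3% ± 1.01 in ENR (SD, n = 3 each, as for every ± that follows). The 7 in the Tex15 stretch averaged 91.4% ± 8.13 and 93.4% ± 3.84, and the 9 in the Rpl39l stretch 96.3% ± 0.729 and 94.2% ± 0.483. The 16 measured cytosines of the Oser1 stretch averaged 0.593% ± 1.03 in STD and 0.553% ± 0.342 in ENR.

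Levels over the 11400 promoters were mostly near 0. A total of 10558 promoters (92.6%) lay under 5%, 232 lay between 20% and 70%, and of the 83 methylated promoters 20 lay between 70% and 80%, 26 between 80% and 90%, and 37 at 90% or more. The limit cut a sparse but unbroken range. Mfsd4b5 (70.3%), Morn3 (71.2%) and Tmem150b (71.6%) were just inside it, and Cort (69.9%), Srgn (69.7%) and S100z (69.4%) were just outside. In every library, 62 of the promoters were at 70% or more and 24 were at 90% or more in every library. Promoters nearer the limit varied more between mice, with a median SD over the 6 libraries of 7.93 percentage points at 70% to 80%, 4.11 at 80% to 90% and 2.24 at 90% or more. A level cannot vary far when it is close to 100%. Sites carried at least 10 reads, the minimum set by the authors, and their depth above that is not known.

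**Figure D1:**
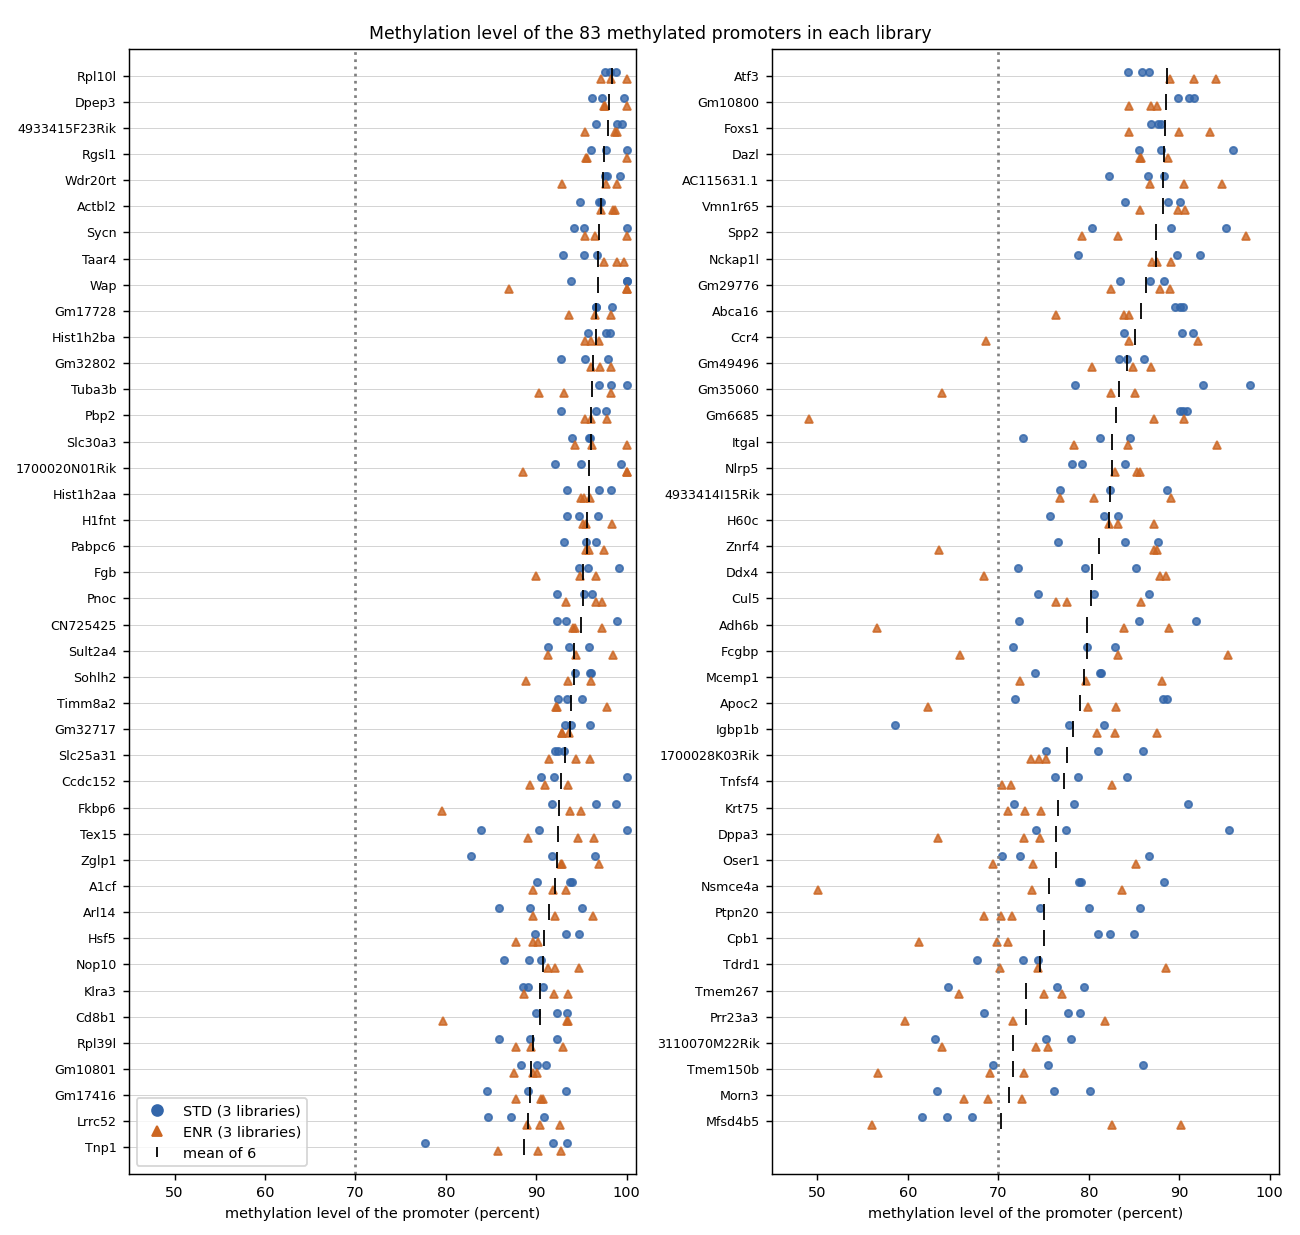
Methylation level (percent, horizontal axis) of each of the 83 methylated promoters, ordered by the mean of 6 libraries (black bar), with 3 STD libraries as circles and 3 ENR libraries as triangles and the 70% limit dotted. Points lie close together at the top, where Rpl10l has a mean of 98.3%, and spread out towards Mfsd4b5 at 70.3%.

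Membership was also read in mice that had not chosen it. Of 86 promoters at 70% or more in the STD libraries, 78 (90.7%) were at 70% or more in the ENR mean, with a median there of 89.1%. Of 81 chosen in ENR, 78 (96.3%) were at 70% or more in STD, with a median of 89.6%. The lowest value in the group not used was 36.5% at Krt27 (chosen in STD) and 62.7% at Noxa1 (chosen in ENR).

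Promoters of neuronal identity genes were mostly low. Of 34 measured on a list of such genes none was methylated, and the highest was Camk2a, a calcium-dependent kinase of the synapse, at 5.14%. None of 45 housekeeping promoters was methylated either. Markers of dentate granule neurons were low: the STD and ENR means of Prox1, Neurod1, Calb1 and Dsp all lay between 0.711% and 2.52%, while Rbfox3 had too few measured cytosines. Against 0.728% of all promoters, 14 of 26 measured promoters on the list of germ line and pluripotency genes were methylated (53.8%), 2 of 5 on the blood and immune list, 2 of 4 on the liver and pancreas list, 1 of 6 on the epidermis and hair list, and 0 of 13 on the muscle list, 0 of 9 on the kidney and gut list and 0 of 5 on the sensory list. The lists were written with earlier results of these data known, so these shares are descriptions. Many listed genes were not measured, and the shares hold for the measured genes only. Measured were 26 of 79 germ line and pluripotency genes, 5 of 71 blood and immune, 4 of 73 liver and pancreas and 6 of 61 epidermis and hair genes. Muscle had 13 of 58, kidney and gut 9 of 58, sensory 5 of 30, neuronal 34 of 57 and housekeeping 45 of 56.

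The germ line promoters lay mostly in a high and a low set. On the list, 14 lay at 74.6% or more and 10 lay under 10%, with Pou5f1, the pluripotency factor Oct4, at 42.1% and Hormad2, a meiotic chromosome axis protein, at 28.7% between them. The 10 low promoters included Stag3 and Smc1b, subunits of meiotic cohesin, at 1.43% and 1.66%, and Meiob, which acts in meiotic recombination, at 1.33%. Methylation was found at some germ line genes and not at others.

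The genes were sorted by known function or expression, with the groups assigned by hand after the list of names was seen. A germ line and early embryo group held 25 of the 83, some of them placed by known expression in testis only. Its median level was 92.3%. In this group Rpl10l, an autosomal copy of the X-linked ribosomal protein gene Rpl10 used in male meiosis, had 98.2%, 97.6% and 98.8% in STD 1 to 3 and 98.2%, 100% and 97.2% in ENR 1 to 3. These values differed by less than 3 points across all mice. Rpl39l (89.6%), a ribosomal protein copy of the testis, and Slc25a31 (93.2%), the ADP/ATP carrier of germ cells, are likewise relatives of X-linked genes. Chromatin proteins of sperm were represented by the linker histone H1fnt (95.7%), the transition protein Tnp1 (88.6%) and the testis histones Hist1h2ba (96.7%) and Hist1h2aa (95.8%), which lie on opposite strands with neighbouring 5′ ends and share 10 measured cytosines. The RNA-binding and piRNA proteins Dazl (88.3%), Ddx4 (80.3%) and Tdrd1 (74.6%), and Tex15 (92.4%), Fkbp6 (92.6%) and Hsf5 (90.9%), all needed in spermatogenesis, formed a further set. Oocyte and early embryo genes were Nlrp5 (82.6%), a maternal effect gene, Dppa3 (76.3%), the protector of maternal methylation also called Stella, and Zglp1 (92.3%), a regulator of oogenic fate, with Sohlh2 (94.1%), a transcription factor of both germ lines. The rest of the group were Dpep3, Tuba3b, Pbp2, Pabpc6, Znrf4, Lrrc52, Ptpn20 and Morn3, all with known expression in testis.

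Ddx4 was one of the more variable promoters of this group. Its 19 cytosines averaged 85.2%, 79.6% and 72.2% in STD and 88.5%, 87.9% and 68.5% in ENR. The lowest value of each group came from the library numbered 3, and the groups overlapped. Dppa3 had 77.5%, 74.2% and 95.6% in STD and 74.6%, 63.4% and 72.8% in ENR, with 1 high STD library.

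Secretory and metabolic genes of liver, pancreas, gut and mammary gland made up 10 promoters with a median of 89.8%. They were Sycn (96.9%), a protein of zymogen granules, Wap (96.8%), the milk whey protein, Fgb (95.2%), a fibrinogen chain, Sult2a4, Spp2, A1cf, which helps edit Apob mRNA, Apoc2, an activator of lipoprotein lipase, Adh6b, Fcgbp of mucus, and Cpb1, a pancreatic carboxypeptidase (75.1%). Genes of blood and immune cells, or of recognition by them, made up 8, with a median of 83.9%: the natural killer receptor Klra3, the T cell coreceptor chain Cd8b1 (90.4%), the integrin Itgal (82.6%), the haematopoietic actin regulator Nckap1l, the chemokine receptor Ccr4, the stress ligand H60c, Mcemp1 and the costimulator Tnfsf4. Chemosensory receptors were Taar4, a trace amine receptor of the nose (96.8%), and Vmn1r65, a pheromone receptor (88.2%). The remaining named genes were Krt75, a keratin of hair follicles (76.6%), Foxs1, a forkhead factor, Actbl2, an actin, Wdr20rt, Timm8a2 and Igbp1b, each a copy of another gene, and Rgsl1, Arl14, Abca16, Ccdc152, Prr23a3, Tmem267, Tmem150b and Mfsd4b5.

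Neuronal and broadly used genes were also present. Slc30a3, the transporter that loads zinc into synaptic vesicles, and Pnoc, the precursor of the neuropeptide nociceptin, had 5′ ends at 96.0% and 95.1%. Atf3, a stress-induced transcription factor (88.6%), Nop10, a small protein of the RNA-modifying H/ACA complexes (90.7%), Cul5, a ubiquitin ligase scaffold (80.2%), Oser1, a gene of the oxidative stress response (76.3%), and Nsmce4a, a subunit of the SMC5/6 complex (75.7%), are used in many tissues. A level at a 5′ end is throughout that of the cytosines measured within 500 bp of it. At Nop10 all 10 of them lay at -483 to -383 bp, so methylation nearer its start is not known. The same holds for Atf3, measured at -410 to -273 bp, and Pnoc, measured at -339 to -219 bp. The other 17 methylated genes carry predicted or clone names: 1700020N01Rik, 1700028K03Rik, 3110070M22Rik, 4933414I15Rik, 4933415F23Rik, AC115631.1, CN725425, Gm10800, Gm10801, Gm17416, Gm17728, Gm29776, Gm32717, Gm32802, Gm35060, Gm49496 and Gm6685.

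At some of these genes a start further downstream was unmethylated. There were 6 methylated genes with another start of their own, at least 1000 bp downstream, that had 5 or more measured cytosines around it, and at 5 of them that start was under 20%. Slc30a3 had 95.8%, 93.9% and 96.0% (STD) and 96.2%, 94.3% and 100% (ENR) at its 5′ end, and 2.27%, 1.83%, 1.92%, 0.357%, 0% and 3.51% in the same order at a start 13436 bp downstream. Atf3 had 88.6% at its 5′ end and 0.896% at a start 34931 bp downstream, Nsmce4a 75.7% and 1.41% (25737 bp), Oser1 76.3% and 6.59% (5169 bp) and Cul5 80.2% and 1.03% (2503 bp). In each of the 5 genes every library was at 10.5% or less at the downstream start and at 50.1% or more at the 5′ end. Mfsd4b5 was the exception, with 58.7% at its other start. A low other start was also common outside the 83, at 1161 of 1525 promoters with one measured (76.1%, or 89.2% with starts of protein-coding transcripts only and 69.4% with starts at least 2000 bp away), beside 83.3% of the 6 methylated genes under each of these settings. RefSeq places its start over 500 bp from the GENCODE 5′ end at 5 of the 55 methylated genes it matched: Atf3, Oser1, Nsmce4a and Cul5, all under 20% there, and Ccr4, where too few cytosines were measured. The share of 9.09% is set beside 7.39% of the other promoters matched (646 of 8746), of which 392 of 408 with enough cytosines at the RefSeq start were under 20%.

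**Figure D2:**
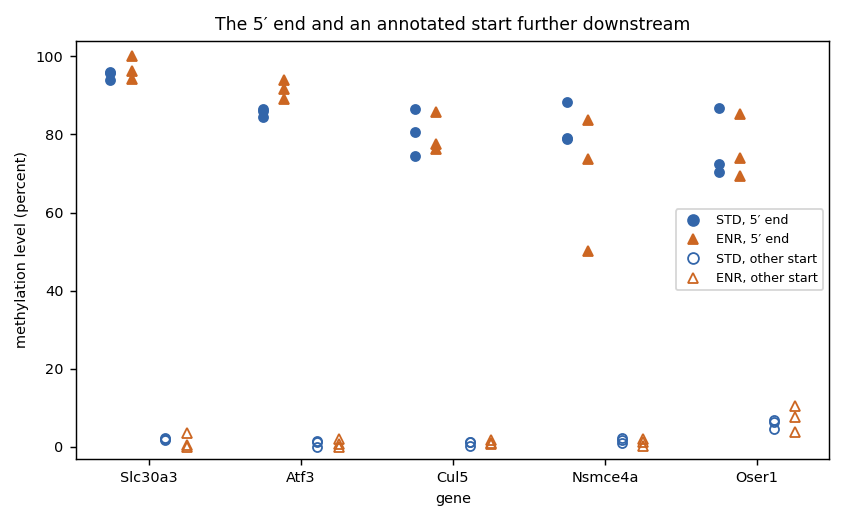
Methylation level (percent) in each library at the 5′ end (filled symbols) and at an annotated start further downstream (open symbols) of 5 genes, with STD as circles and ENR as triangles. Every 5′ end value is above every value at the downstream start, which reaches at most 10.5% in Oser1.

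Methylated and unmethylated sequence lay around the same 5′ end at some of these genes. At Tex15 the 7 cytosines at positions -66 to -18 bp from the 5′ end averaged 92.4%, and 12 cytosines 791 to 1081 bp after it averaged 1.96%. At Dazl 3 cytosines at -602 to -573 bp averaged 98.1% and the 6 sites 272 to 308 bp after it lay at 87.1% or more, the site at 373 bp had 41.2%, and 18 sites at 726 to 838 bp averaged 1.99%. In the 6 libraries the site at 373 bp read between 44.6% and 71.7% in STD and between 7.41% and 41.7% in ENR, and this site, chosen after its values were seen, had the widest range of the sites measured at this gene. Pnoc had 95.1% over its 6 sites before the 5′ end and 7.59% over 17 sites 1463 to 1911 bp after it. At Tex15 and Pnoc no site was measured between the methylated and the low stretch. Of the 12 methylated promoters with 5 or more measured cytosines 500 to 2000 bp away, 6 were at 70% or more there and 3 under 20%, with a median of 64.7%, while 93.1% of the other 5939 promoters with such cytosines were under 20%.

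Of the 83, the promoters with the most measured cytosines were Tmem267, a transmembrane protein gene (70 sites, 73.0%), and 3110070M22Rik on the opposite strand (74 sites, 71.6%). The 5′ parts of these genes overlap, and all 70 sites of Tmem267 are also sites of 3110070M22Rik. Their libraries read 79.5%, 76.5% and 64.4% in STD and 65.6%, 77.0% and 75.1% in ENR at Tmem267, with low libraries in both groups. In the printed 3110070M22Rik stretch 50 cytosines averaged 84.8%, yet the CpG at chr13:119488435-119488436 had 6.25% on the plus strand and 4.30% on the minus strand. Its 12 values were between 0% and 14.0%, a low point on both strands and in all mice between neighbours that were mostly near 90%. All 12 cytosines under 20% in the 83 promoters lay in this place. Of them, 9 lay 111 to 173 bp after the 5′ end, where STD 1 had 20.8% to 35.7% and the other mice were mostly at 0%.

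**Figure D3:**
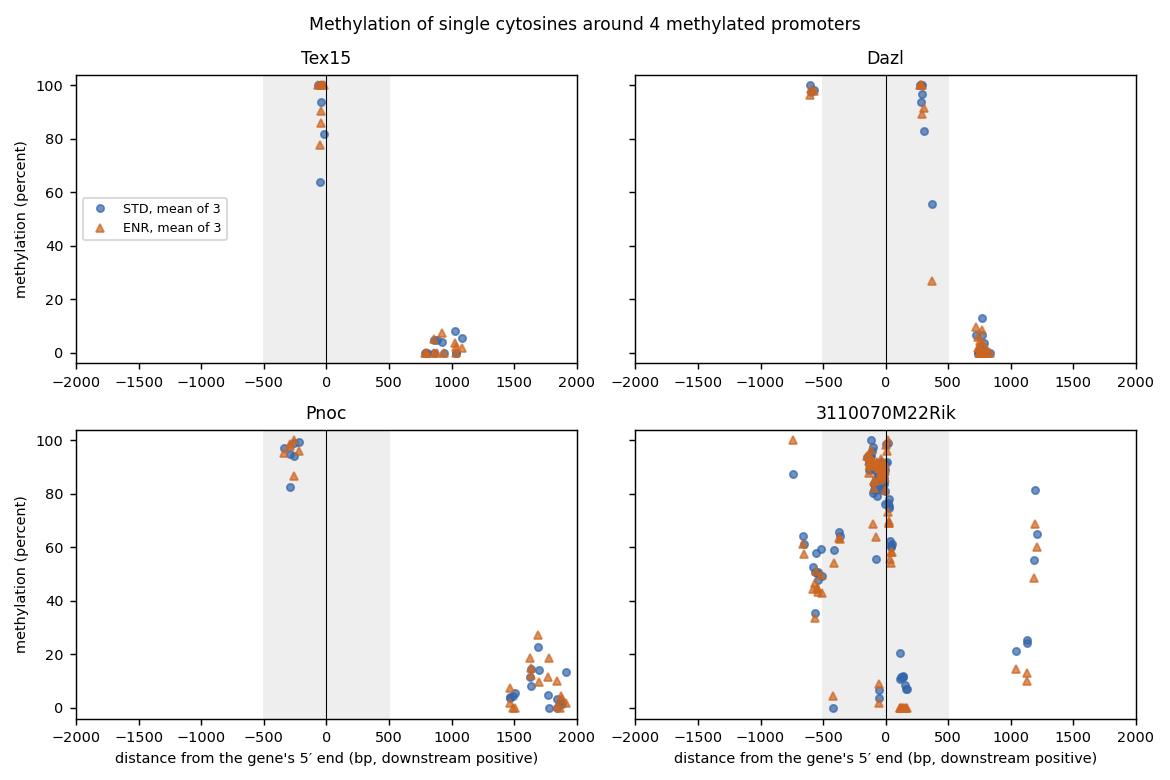
Methylation (percent) of single cytosines against distance from the 5′ end (bp, downstream positive) at Tex15, Dazl, Pnoc and 3110070M22Rik, as means of 3 STD mice (circles) and 3 ENR mice (triangles), with the 500 bp window shaded. Sites near the 5′ end are mostly near 100% and those further downstream near 0% in Tex15, Dazl and Pnoc, and in 3110070M22Rik low sites stand among sites near 90%.

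Beyond the level that chose them, these promoters were on the whole poorer in CpG than the others, given here as a description. Their median ratio of observed to expected CpG was 0.394 against 0.747 in all promoters, their median share of G and C was 49.9% against 60.1%, and they held a median of 23 CpGs against 66. Of the 83, 12 (14.5%) reached the common criterion of a CpG island in this window (at least 50% G and C and a ratio of at least 0.6), against 77.4% of all promoters. Of these 12, 9 belonged to the germ line group (Slc25a31, Fkbp6, Hsf5, Rpl10l, Hist1h2ba, Hist1h2aa, Ddx4, Dazl and Tdrd1), and the others were Prr23a3, Tmem267 and 3110070M22Rik. The germ line group had a median ratio of 0.548, the liver, pancreas, gut and mammary group 0.328 and the immune group 0.282. Genes with a single exon made up 24.1% of the 83 (20 genes) and 2.93% of all measured genes. Repeated or copied genes are often of this kind, as are Rpl10l, Actbl2 and Taar4. The short motif TCCCGC, searched on both strands without regard to overlap with other motifs, was present within 500 bp of 34.9% of the methylated and 72.8% of all promoters, and the E-box CACGTG in 19.3% and 21.5%. Neither is more than a count of letters.

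**Figure D4:**
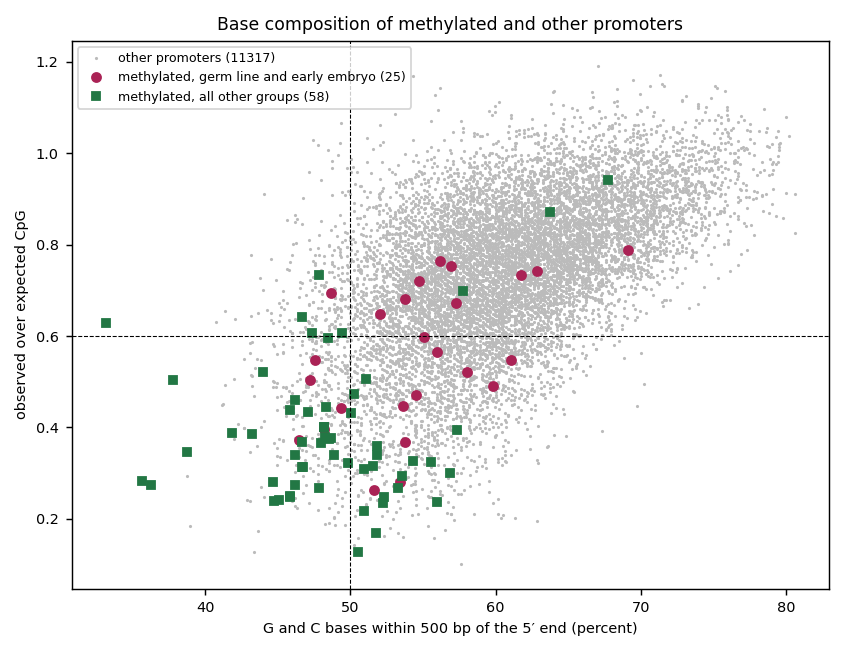
Share of G and C (percent, horizontal axis) and ratio of observed to expected CpG (vertical axis) within 500 bp of the 5′ end, for 25 methylated promoters of the germ line group (circles), 58 other methylated promoters (squares) and 11317 other promoters (grey), with island limits dashed. Most squares lie below the ratio of 0.6 and many circles lie above or near it.

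The 889 promoter sites were 809 distinct cytosines, all in CpG pairs of the reference. They lay in coding sequence (34.0%), upstream of the gene (32.3%), in untranslated parts of exons (20.9%), in introns (11.7%) and in other exons (1.11%), and 50 were at 100% in every library. Sequence that occurs more than once was a limit at 11 promoters, where at least 1 site lay in a 32-base word found again in the genome. At Gm10800 it was 12 of 18 sites, at Gm10801 8 of 12, at Gm32717 and Gm32802 all 6, at Hist1h2ba 15 of 28 and at Vmn1r65 5 of 8, with up to 836 copies. Reads there may come from more than 1 place. The windows of Gm10800 and Gm10801 hold no CCGG, the site of the RRBS enzyme.

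The comparison of ENR with STD asked whether housing moved these promoters. No methylated promoter was called by limma at an adjusted p under 0.05, as none of 11377 tested promoters was (0%). At an unadjusted p under 0.05 there were 5 of 83, against 535 of all promoters (4.70%). Levels averaged over the 83 were 88.7%, 87.9% and 87.1% in STD and 87.6%, 87.7% and 85.0% in ENR, so the group means of 87.9% ± 0.840 and 86.8% ± 1.53 differed by -1.11 points, less than the SD of the ENR mice. ENR replicate 3 was the lowest library at 27 of the 83 promoters, and without it the difference was -0.231. In ENR 40 promoters were higher and 43 lower, and with libraries centred on promoters of intermediate level 55 were higher and 28 lower.

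Housing groups did not overlap at 4 promoters that were higher in ENR, against 4.32% of all promoters, and at 5 that were lower, against 5.78%. Both counts are near the background share (4.82% and 6.02% of the 83). Cpb1 had the widest gap, with 85.0%, 82.4% and 81.0% in STD and 71.1%, 69.9% and 61.2% in ENR. Every ENR mouse was at least 9 points below every STD mouse, and the difference of -15.4 points (SE 4.43) had an unadjusted p of 0.00811 and an adjusted p of 0.953 by limma. Abca16, an ABC transporter, had 89.6%, 90.5% and 90.1% in STD and 84.5%, 76.4% and 83.9% in ENR, a difference of -8.47 points (SE 2.64, unadjusted p = 0.0122 by limma). Its STD mice lay within 1 point of each other and ENR 2 stood lowest. Atf3 was higher, with 84.4%, 86.6% and 85.9% in STD and 91.6%, 89.0% and 94.1% in ENR, a difference of 5.91 points (SE 1.94, unadjusted p = 0.0157 by limma). This was at the methylated 5′ end, and the start 34931 bp downstream had 0.873% ± 0.762 in STD and 0.920% ± 0.967 in ENR. Taar4 differed by 3.73 points (SE 1.26, unadjusted p = 0.0177) and Gm10800, with repeated sequence, by -4.62 (SE 1.75, unadjusted p = 0.0296), both by limma. The other promoters without overlap were Nop10 (4.02 points) and Actbl2 (1.82) above, and Ptpn20 (-10.0) and 1700028K03Rik (-6.27) below. None passed after adjustment over all promoters, where the adjusted p was 0.953 for each of the 9.

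**Figure D5:**
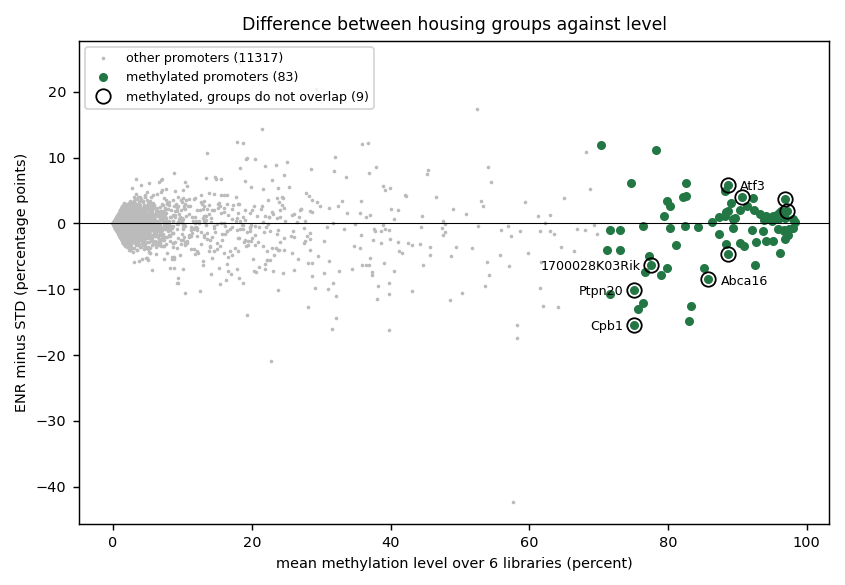
Difference ENR minus STD (percentage points) against mean level (percent) for 83 methylated promoters (green) and 11317 others (grey), with the 9 methylated promoters without overlap between groups ringed. Green points lie on both sides of 0, and the lowest is Cpb1 at -15.4 points.

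Large spread between mice accompanied several of the larger differences. Gm6685 had 90.9%, 90.1% and 90.4% in STD and 90.5%, 87.3% and 49.0% in ENR, so its -14.9 points came from ENR 3. Nsmce4a had 88.3%, 78.9% and 79.2% in STD and 50.1%, 83.7% and 73.8% in ENR, where ENR 1 was low. Mfsd4b5 had 64.4%, 67.1% and 61.5% in STD and 90.2%, 82.5% and 56.0% in ENR, with ENR 3 below and the other two above every STD mouse. Adh6b ranged from 56.5% in ENR 3 to 91.8% in STD 2 and Gm35060 from 63.7% in ENR 3 to 97.8% in STD 2, and in both the groups overlapped. Differences over 10 points occurred at 9 of the 83 promoters, of which 2, Cpb1 and Ptpn20, had no overlap between groups.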

How the data were processed

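DNA methylation was measured by RRBS in dentate gyrus of 3 STD and 3 ENR mice, with 1 library per mouse. The authors trimmed reads with Trim Galore and cutadapt, mapped them to mm10 with Bismark and extracted levels with methylKit, and kept cytosines with at least 10 reads. The submitters' processing notes name Trim Galore 0.4.0, cutadapt 1.8.1, Bismark 0.16.1 and methylKit 1.5.2, and the methods text names other versions of Trim Galore and Bismark. The values deposited are the percent of reads methylated at each of 890041 cytosines in each library, 866851 of them autosomal, with 0 missing values. Read numbers are not part of these values, so depth beyond the minimum is unknown and no interval that needs it is given.

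Cytosines within 500 bp of the 5′ end of 20807 autosomal protein-coding genes (GENCODE M21) were averaged per library with equal weight. Members needed 5 or more cytosines and a mean of 70% over 6 libraries, and the members, gene lists and tests were chosen with earlier results of these data known. Promoters were compared with limma 3.58.1 in R 4.3.3 (lmFit, eBayes with a variance trend, Benjamini-Hochberg over all 11377 promoters that varied), checked on simulated data. The exact permutation test of 3 against 3 cannot give a p under 0.10 and was not used. Deviations of same-numbered STD and ENR libraries correlated over all promoters with r = 0.123, 0.102 and 0.278, so a fit with the replicate number as a block was run, although nothing in the labels says what a shared number means. The p-values set each difference against the spread between mice, with the variance of each promoter moderated over all promoters. According to the paper, ENR mice of an experiment lived together in an enclosure, so enclosure and housing cannot be told apart. Named promoters were the list members that were methylated, the 8 highest, the 8 with most sites, the 3 on each side of the limit, those without overlap between groups, the 5 with largest SD and those with a low other start. Other names and the functional groups were chosen after values were seen. Promoter coordinates were compared with the RefSeq GRCm38 genome, and 55 member genes matched a RefSeq entry by gene, 50 of them with a start within 500 bp of the GENCODE 5′ end. Python 3.11.15 and pandas 2.3.3 were used.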

Additional observations from a re-analysis of the deposited data

How the results depend on the processing

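The number of methylated promoters depended on the window and on the minimum number of cytosines: 50 with a window of 250 bp, 127 with 1000 bp, 165 with at least 3 cytosines and 26 with at least 10. It was 103 at a threshold of 60%, 63 at 80%, 76 with averaged strands, 89 with the median, 86 from STD alone and 81 from ENR alone, and between 82 and 87 without each library in turn. Without 7 promoters of largely repeated sequence, an alternative chosen after the data were seen, 76 remained. No methylated promoter was called under any of the limma alternatives, with 1 to 10 at an unadjusted p under 0.05 (5 to 9 without each library), while over all promoters up to 2 were called. With the replicate block the mean difference was -1.11 points, from same-numbered differences of -1.09, -0.220 and -2.03, and 7 of 83 promoters had an unadjusted p under 0.05 with 0 called. The mean difference ranged from -1.58 to -0.231 points without each library in turn, was -0.399 after quantile normalization and -0.306 for the median over promoters. For the 9 promoters without overlap, the direction without each library and in the block is fixed by how they were chosen and by the balanced design, so it says nothing of stability. The 5 low other starts were found under every limit tried, and 4 of them by RefSeq starts. Percentages without read numbers limit what can be said of small differences.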

Other observations

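X-linked promoters lay outside the rule. Under the same limits 16 of 319 measured X-linked promoters (5.02%) were at 70% or more, and 235 (73.7%) lay between 20% and 70%, against 2.04% of autosomal promoters. Among the 16 were Rhox13 (96.0%), Rhox2d (93.2%), Rhox9 (91.7%) and Rhox6 (89.2%), homeobox genes of the reproductive tissues, the lymphocyte-regulated Xlr4c (97.3%) and Xlr4b (86.3%), and Magea5 (82.0%), a member of the melanoma antigen family. Rhox9 had 92.2%, 92.5% and 91.8% in STD and 91.7%, 91.0% and 90.9% in ENR over 26 cytosines, and the mice differed by less than 2 points. These names were chosen after their values were seen, and no test was run on them.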
